A study of Mus musculus with 15 samples.

Results

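The genes of leukaemia inhibitory factor (LIF) and STAT3 signalling were examined in CG-resolution maps of 5-hydroxymethylcytosine (5hmC) and of unmodified CG from mouse embryonic stem cells (mESCs). The members were 8 of the 20807 autosomal protein-coding genes of the annotation and were taken by name: the ligand gene Lif, the receptor genes Lifr and Il6st, the kinase genes Jak1 and Jak2, the transcription factor gene Stat3, the feedback inhibitor gene Socs3 and the phosphatase gene Ptpn11. Each locus was the gene span plus the 2 kb upstream of it (GRCm38/mm10, GENCODE M21). The 8 loci held 6184 of the 20383623 autosomal CGs.

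The DNA came from E14TG2a cells, an mESC line that was kept on gelatin in medium with 1000 U/ml LIF and 15% FBS, so that every library is from cells supplied with the ligand. In hmTOP-seq, β-glucosyltransferase (BGT) puts an azide-bearing glucose on 5hmC, an oligonucleotide is coupled to it, and a polymerase primed from that oligonucleotide gives a read that begins at the modified CG. uTOP-seq reads unmodified CGs in a related way. hmTOP-seq was carried out on 500, 50 and 5 ng of DNA with 2 technical replicates of each, every input had 2 control libraries made without BGT, and uTOP-seq was carried out on 300 ng with 3 replicates. The hmTOP-seq replicates are technical and no label ties the uTOP-seq replicates to separate cultures, so SDs and p-values measure the spread between libraries and not between cultures.

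In this pathway, LIF binds a receptor made of LIFR and gp130, the product of Il6st, and the receptor-bound Janus kinases phosphorylate STAT3, which enters the nucleus and activates genes that keep mESCs undifferentiated. SOCS3 is induced by STAT3 and blocks the receptor and its kinases, and the phosphatase SHP2, encoded by Ptpn11, is recruited to gp130 and links it to the ERK branch, which opposes self-renewal. TET enzymes make 5hmC from 5-methylcytosine, and the mark is known to be found over transcribed gene bodies and at the edges of unmethylated promoters rather than inside them.

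The hmTOP-seq libraries held 32502791 and 31918445 reads (500 ng), 23027170 and 22052535 (50 ng), and 14884939 and 15277636 (5 ng). The uTOP-seq libraries held 28412885, 23078739 and 20120568 reads. Of these, 14154 and 14465 reads (500 ng), 9839 and 9779 (50 ng), 6948 and 6869 (5 ng), and 12570, 10451 and 8796 uTOP-seq reads lay in the 8 loci. The control libraries held 10072 and 9348 reads (500 ng), 3409 and 3448 (50 ng), and 3744 and 4790 (5 ng). Only 3 and 8 control reads fell in the 8 loci at 500 ng, in Lifr, Il6st, Stat3 and Ptpn11, and 0 in the other 4 control libraries. Values below are reads per CG, or the relative coverage, which is the reads per CG of a region divided by the reads per CG of all autosomes in the same library. Reads carry no molecular identifiers, so that limits given for counts of 0 cover counting error only.

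At 500 ng, 5hmC coverage was high over Lif, above the genome mean over Stat3 and Lifr, and low over Jak1 and Socs3. The relative coverage of the loci was 3.56 ± 0.108 for Lif, 2.02 ± 0.0369 for Stat3, 1.85 ± 0.0320 for Lifr, 1.31 ± 0.0465 for Il6st, 1.28 ± 0.0601 for Ptpn11, 1.03 ± 0.0631 for Jak2, 0.726 ± 0.0193 for Jak1 and 0.682 ± 0.0186 for Socs3 (SD, n = 2). The value of Socs3 was carried by the 2 kb upstream, and its gene span alone stood at 0.253 ± 0.0426. Among neighbours in this order only Il6st and Ptpn11 overlapped between libraries. The median of 20711 autosomal protein-coding genes with at least 10 CGs was 0.977, and 6 of the 8 members lay above it. Lif exceeded 97.7% of these genes, Stat3 82.2%, Lifr 78.6%, Jak1 38.0% and Socs3 35.7%. Unmodified CG gave another order. In uTOP-seq, Socs3 was highest with 3.52 ± 0.203, more than 99.1% of genes, before Lif with 2.41 ± 0.160, Stat3 with 1.62 ± 0.0393, Lifr with 1.57 ± 0.0158, Il6st with 1.38 ± 0.0397, Ptpn11 with 1.26 ± 0.0624, Jak2 with 1.20 ± 0.0718 and Jak1 with 0.966 ± 0.0144 (SD, n = 3). Here Stat3 and Lifr overlapped, as did Ptpn11 and Jak2, and the median of all genes was 1.33.

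**Figure D1:**
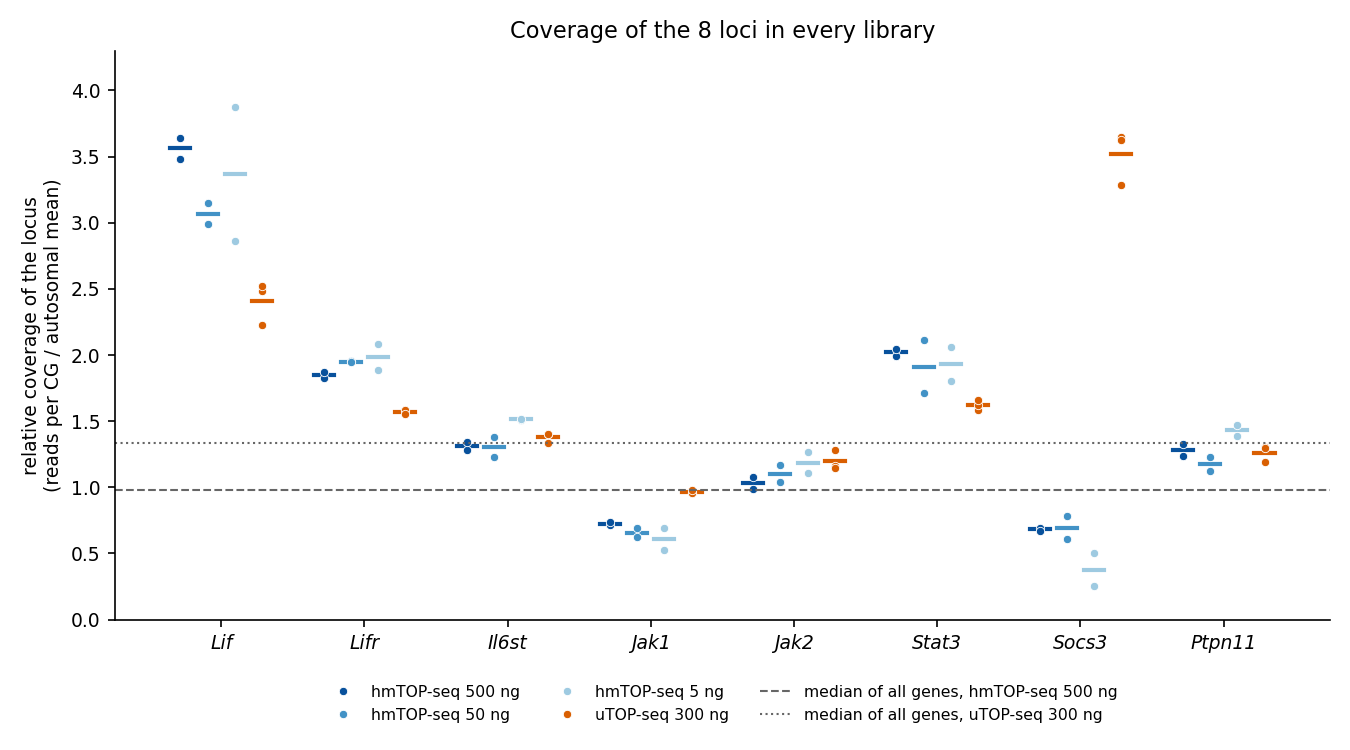
Relative coverage (reads per CG of the locus over the autosomal mean of the library, no unit) of the 8 loci. Points are libraries, short bars are group means, and the dashed and dotted lines are the medians of all genes at 500 ng and in uTOP-seq. Lif has the highest hmTOP-seq points at every input, and Socs3 is lowest at 500 ng with 0.682 and highest in uTOP-seq with 3.52.

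At the lower inputs the order was similar but not the same. Lif was highest at 50 ng with 3.07 ± 0.113 and at 5 ng with 3.37 ± 0.716 (SD, n = 2), above every library of the next member. Lifr, with 1.95 ± 0.00770 (50 ng) and 1.99 ± 0.135 (5 ng), overlapped at both inputs with Stat3, which had 1.91 ± 0.281 and 1.93 ± 0.178. At 50 ng the pairs Ptpn11 and Jak2, and Socs3 and Jak1, overlapped as well, and at 5 ng no other neighbours did. Socs3 had the smallest 5-ng value, 0.379 ± 0.180.

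Lif, Stat3 and Socs3 lie on chromosome 11, whose mean was 1.44 ± 0.00386 times the autosomal mean in the 500-ng libraries (SD, n = 2), 1.33 ± 0.00616 times in uTOP-seq (SD, n = 3) and 1.34 ± 0.0250 times in the 500-ng controls without BGT (SD, n = 2). Relative to their own chromosome, the 500-ng values were 2.47 for Lif, 1.40 for Stat3 and 0.473 for Socs3, and the uTOP-seq values were 1.81, 1.22 and 2.64. On that scale the 500-ng order was not the same, since Lifr, at 1.73, and Il6st, at 1.59, then stood above Stat3, with Ptpn11 at 1.16, Jak2 at 0.931 and Jak1 at 0.664. The part of the chromosome in the locus levels was not tested.

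Lif encodes the ligand itself and lies at chr11:4257557-4272514 on the plus strand. Its locus of 315 CGs held 1732 and 1775 hmTOP-seq reads (500 ng), 1108 and 1007 (50 ng), 881 and 668 (5 ng), and 1073, 884 and 681 uTOP-seq reads. Coverage was high in all of its elements. At 500 ng, relative coverage was 4.32 ± 0.170 in the 24 CGs of the 2 kb upstream, above 97.7% of the promoters compared, 3.27 ± 0.262 in exons and 3.62 ± 0.0632 in introns (SD, n = 2). Within the longest transcript the coding exons stood at 6.18 ± 0.0559 and the 3′ UTR at 3.81 ± 0.583. Lif was the only member besides Lifr whose 1-kb windows around the start, 500 bp on each side, had more 5hmC than the genome mean: 124 and 93 reads fell on 16 CGs there, or 4.33 ± 0.820, beside 3.69 ± 0.505 for unmodified CG (SD, n = 3). At site level 56.2% of its CGs were read in both 500-ng libraries, the largest share among the members, and Pearson r between those libraries over its 315 CGs was 0.844. These CGs share libraries and neighbourhood, and r is a description.

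Lifr encodes the low-affinity LIF receptor and is the member with most CGs, 1565, at chr15:7090614-7197489 on the plus strand. Its reads numbered 4512 and 4540 (500 ng), 3419 and 3256 (50 ng), 2352 and 2192 (5 ng), and 3397, 2760 and 2365 in uTOP-seq. The longest transcript starts 63739 bp inside the outermost annotated start. The 17 CGs upstream of the outermost start were well covered by 5hmC, with 80 and 66 reads (500 ng), 60 and 65 (50 ng), 54 and 57 (5 ng). The relative coverage of 2.74 ± 0.337 at 500 ng exceeded 91.2% of promoters, with exons at 1.74 ± 0.0537 and introns at 1.86 ± 0.0327 (SD, n = 2). Unmodified CG in the same upstream region was 2.95 ± 0.0475 (SD, n = 3).

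RefSeq gives Lifr a pair of starts, both inside the GENCODE gene span, and the 250 bases before them differed in base composition and in coverage. The outer one, at chr15:7129322-7129571, held 43 CGs and 0 and 0 hmTOP-seq reads at 500 ng, which allows up to 0.0698 reads per CG in a library, and 24, 16 and 28 uTOP-seq reads. The inner one held only 3 CGs, and these took 52 and 43 hmTOP-seq reads (500 ng), 30 and 23 (50 ng), 2 and 52 (5 ng), and 14, 11 and 14 uTOP-seq reads. Its 500-ng relative coverage was 10.1 ± 1.23 (SD, n = 2). It is shown because the CG of Lifr with most reads in the first 500-ng library lies in it. That CG, position 7140532, is the last of the window and held 45 and 35 of the 500-ng reads. Its rank in the locus was 2 in the second 500-ng library, and by summed reads 7 at 50 ng and 12 at 5 ng. The sequence (RefSeq start, GRCm38/mm10, chr15:7140292-7140541, plus strand, intronic in GENCODE, CGs in capitals) was:
Lifr inner start: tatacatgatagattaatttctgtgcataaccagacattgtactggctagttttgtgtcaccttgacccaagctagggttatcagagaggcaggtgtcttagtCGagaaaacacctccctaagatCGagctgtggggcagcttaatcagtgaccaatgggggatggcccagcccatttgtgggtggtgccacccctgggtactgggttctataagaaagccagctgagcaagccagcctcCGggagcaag

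Il6st encodes gp130, the signalling subunit that LIF shares with other cytokines of the interleukin-6 family, and lies at chr13:112464070-112510086 on the plus strand. Its 749 CGs held 1513 and 1562 reads (500 ng), 1028 and 1109 (50 ng), 816 and 843 (5 ng), and 1446, 1169 and 972 in uTOP-seq. The 2 kb upstream, with 61 CGs, took 14 and 15 of these reads (500 ng), 16 and 14 (50 ng), and 3 and 67 (5 ng), against 207, 166 and 120 in uTOP-seq. The start of Il6st was therefore poor in 5hmC and rich in unmodified CG, at 0.152 ± 0.00938 (SD, n = 2) and 2.31 ± 0.251 (SD, n = 3) in relative coverage, except for the 67 reads of the second 5-ng library. Exons, at 1.83 ± 0.0445, stood above introns, at 1.22 ± 0.0960, at 500 ng (SD, n = 2). Its most covered CG in the first 500-ng library was coding, in exon 12 of 17, and held 27 and 25 reads (500 ng), 6 and 4 (50 ng), and 0 and 0 (5 ng).

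Jak1 and Jak2 encode the kinases bound to the receptor chains. Jak1 (chr4:101152367-101265282, minus strand) has 1004 CGs with 1129 and 1151 reads (500 ng), 700 and 744 (50 ng), 501 and 389 (5 ng), and 1318, 1073 and 959 in uTOP-seq. Its 5hmC was below the genome mean upstream, in exons and in introns, with 0.419 ± 0.0366 upstream, 0.707 ± 0.0679 in exons and 0.741 ± 0.00956 in introns at 500 ng (SD, n = 2). Its 5′ UTR, of 34 CGs, held 0 and 1 reads at 500 ng and 54, 54 and 39 in uTOP-seq, whereas its 3′ UTR, of 14 CGs, held 29 and 32 reads at 500 ng and stood above the genome mean at 1.39 ± 0.115 (SD, n = 2). Upstream of Jak1 the hmTOP-seq counts were 18, 20, 20, 21, 17 and 0 over the 500, 50 and 5-ng libraries in turn, and the 0 allows up to 0.103 reads per CG. The span of Jak1 overlaps the genes Raver2, Gm24468 and Gm12785, but none of its CGs lay in another protein-coding gene.

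Jak2 (chr19:29251828-29313080, plus strand) has 773 CGs with 1207 and 1292 reads (500 ng), 1008 and 860 (50 ng), 618 and 725 (5 ng), and 1232, 1102 and 864 in uTOP-seq. It has the most CG-dense upstream region of the members, with 110 CGs, or 55 per kb. That region held 22 and 20 hmTOP-seq reads (500 ng), 8 and 14 (50 ng), 11 and 34 (5 ng), and 114, 129 and 82 uTOP-seq reads. Jak2 was thus the member whose upstream region was low in both maps: 0.122 ± 0.00665 for 5hmC (SD, n = 2), and 0.858 ± 0.168 for unmodified CG (SD, n = 3), the latter above only 15.8% of promoters. The CG of Jak2 with most reads lay in intron 13. It held 43 and 54 reads (500 ng), 30 and 22 (50 ng), and 4 and 0 (5 ng), against a locus mean of 1.67 reads per CG in the second 500-ng library, where it was again the highest of the locus. The choice used the first 500-ng library only.

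For Jak2, Stat3, Socs3 and Ptpn11 the CG with most reads in the first 500-ng library was also the highest of its locus in the second, and these CGs are shown with 14 bases on each side (GRCm38/mm10, CG in capitals). The corresponding CGs of Lif, Lifr, Il6st and Jak1 ranked 5, 2, 3 and 4 in their loci in the second library. No further CGs were ranked between the libraries in this way. The Jak2 window is chr19:29292344-29292373 (plus strand, intron 13), that of Stat3 is chr11:100912613-100912642 (minus strand, intron 1), that of Socs3 is chr11:117970989-117971018 (minus strand, position −956 bp from the gene start), and that of Ptpn11 is chr5:121181306-121181335 (minus strand, intron 1).
Jak2: gagaccgttgtgttCGgggcagtgggatgg
Stat3: tcctccctaagcacCGgtctgagccagtgc
Socs3: tcctccactgccctCGgctcagaagcatac
Ptpn11: cttcccagttatgcCGggaacttcaagcct
The Stat3 site held 54 and 45 reads (500 ng), 23 and 20 (50 ng), and 0 and 24 (5 ng). The Socs3 site held 32 and 32, 18 and 5, and 15 and 0. For Ptpn11 the counts were 32 and 28, 12 and 27, and 7 and 0. None of the 4 sites had a read in the 500-ng controls, each had 0 reads in 1 of the 5-ng libraries, and all had some uTOP-seq reads, with 3, 0 and 2 at the Jak2 site and 11, 12 and 7 at the Ptpn11 site.

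Stat3, the transcription factor at the centre of the pathway, lies at chr11:100885098-100939540 on the minus strand and overlaps Stat5a, though none of its CGs lay in that gene. Its 669 CGs held 2105 and 2121 reads (500 ng), 1281 and 1511 (50 ng), 872 and 1020 (5 ng), and 1453, 1211 and 1080 in uTOP-seq. At 500 ng Stat3 had little 5hmC at its start and well-covered exons. The 39 CGs upstream held 23 and 29 reads (500 ng), 34 and 35 (50 ng), and 0 and 10 (5 ng), against 230, 201 and 154 uTOP-seq reads. The 0 in the first 5-ng library allows up to 0.0769 reads per CG. In relative coverage this was 0.427 ± 0.0751 for 5hmC (SD, n = 2) and 4.33 ± 0.283 for unmodified CG (SD, n = 3), the highest unmodified upstream region among the members and above 99.1% of promoters. Exons reached 3.22 ± 0.0129 in 5hmC, above 89.0% of genes, and introns 1.72 ± 0.0515 (SD, n = 2). By transcript part, the 5′ UTR had 4 and 0 reads on 18 CGs at 500 ng and the coding exons 430 and 446 on 60 CGs. The 250 bases before the RefSeq start are shown for the contrast between the maps. Their 13 CGs had no hmTOP-seq read in all 6 labelled libraries, as was also found for the RefSeq windows of Jak1, Jak2, Ptpn11 and Socs3 and the outer one of Lifr. How common such windows are among all RefSeq promoters was not counted. The 0 allows up to 0.231 reads per CG in each library for Stat3, where the uTOP-seq libraries had 64, 61 and 57 reads there (RefSeq start, GRCm38/mm10, chr11:100939541-100939790, minus strand, no annotated exon, CGs in capitals):
Stat3 start: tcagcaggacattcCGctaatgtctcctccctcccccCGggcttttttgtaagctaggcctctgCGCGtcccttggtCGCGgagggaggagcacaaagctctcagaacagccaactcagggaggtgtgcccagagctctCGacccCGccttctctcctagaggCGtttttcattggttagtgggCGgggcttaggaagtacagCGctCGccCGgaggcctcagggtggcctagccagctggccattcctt

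Socs3, the feedback inhibitor, is short and CG-dense, at chr11:117966079-117970047 on the minus strand, with 248 CGs or 41.5 per kb of locus. Its reads numbered 272 and 257 (500 ng), 217 and 161 (50 ng), 45 and 93 (5 ng), and 1243, 1001 and 792 in uTOP-seq. Per CG the 5hmC reads were denser upstream of the gene than in it. The 31 CGs of the 2 kb upstream took 175 and 182 reads (500 ng), 142 and 79 (50 ng), and 44 and 92 (5 ng), so that all but 1 of the reads of each 5-ng library were upstream. Exons, with 135 CGs, held 96 and 71 reads (500 ng), 75 and 82 (50 ng), and 1 and 1 (5 ng). Introns, with 82 CGs, held 1 and 4 at 500 ng and 0 in the 4 libraries of 50 and 5 ng, where each 0 allows up to 0.0366 reads per CG. At 50 ng exonic coverage per CG was thus at least 15.2-fold and 16.6-fold higher than intronic coverage, counting 3 reads per library for the introns.

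In relative terms the upstream region of Socs3 stood at 3.68 ± 0.150 in 5hmC at 500 ng, above 96.0% of promoters, and its exons at 0.395 ± 0.0787, above 20.3% of genes (SD, n = 2). That region lies before the outermost annotated start, and the longest transcript begins 861 bp after that start. Unmodified CG was high throughout, at 3.35 ± 0.235 upstream, 3.59 ± 0.294 in exons and 3.47 ± 0.189 in introns (SD, n = 3). Along its longest transcript, of 2 exons, 5hmC reads at 500 ng were 0 and 1 on the 44 CGs of the 5′ UTR, 31 and 16 on the 46 coding CGs, and 65 and 52 on the 23 CGs of the 3′ UTR. The uTOP-seq reads on the same parts were 211, 149 and 128, then 247, 252 and 171, then 181, 110 and 98. At 500 ng 5hmC was thus lowest in the 5′ UTR, at 0.00734 ± 0.0104, and highest in the 3′ UTR, at 1.63 ± 0.235 (SD, n = 2), but in the first 50-ng library the 5′ UTR held 15 reads and the coding part 2. Unmodified CG stood at 3.17 ± 0.277, 4.22 ± 0.607 and 4.80 ± 0.807 in the 3 parts (SD, n = 3), the last pair overlapping.

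Motif matches were sought because STAT3 binds TTC and GAA set 3 bases apart, a pattern that is the same on both strands. The motif was present in 2726 of 32851 RefSeq promoters of 300 bases (8.30%) and in 1 of the 8 members, Socs3, where it begins 154 bp before the RefSeq start. That start lies inside the GENCODE gene span, whose longest transcript begins 861 bp after the outermost start. The 250 bases before the RefSeq start end short of that transcript, which begins at position 117969186, and do not hold the bases next to it. The match is shown with its neighbouring bases in lower case (RefSeq start, GRCm38/mm10, chr11:117969501-117969530, minus strand):
Socs3 motif: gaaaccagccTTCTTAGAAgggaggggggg
No CG lies in the match, and the nearest is 20 bp away. The 26 CGs in the 250 bases before the start had 0 hmTOP-seq reads in each of the 6 labelled libraries, which allows up to 0.115 reads per CG, and 42, 32 and 39 uTOP-seq reads. A match of these letters is a description of the sequence, and binding was not measured.

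Ptpn11, which encodes the phosphatase SHP2, lies at chr5:121130533-121191397 on the minus strand and overlaps the annotated gene Gm42930. Its 861 CGs held 1684 and 1767 reads (500 ng), 1078 and 1131 (50 ng), 863 and 939 (5 ng), and 1408, 1251 and 1083 in uTOP-seq. It had few 5hmC reads upstream and more per CG in exons than in introns. The 55 upstream CGs held 17 and 16 reads (500 ng), 0 and 12 (50 ng), and 2 and 18 (5 ng), against 200, 163 and 115 uTOP-seq reads, and the 0 allows up to 0.0545 reads per CG. At 500 ng relative coverage was 0.192 ± 0.00575 upstream, 1.69 ± 0.111 in exons and 1.27 ± 0.0521 in introns (SD, n = 2). Its 5′ UTR of 26 CGs had no hmTOP-seq read in any of the 6 labelled libraries and few uTOP-seq reads, 13, 7 and 5. The coding exons stood at 2.90 ± 0.0250 and the 3′ UTR at 1.63 ± 0.162.

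**Figure D2:**
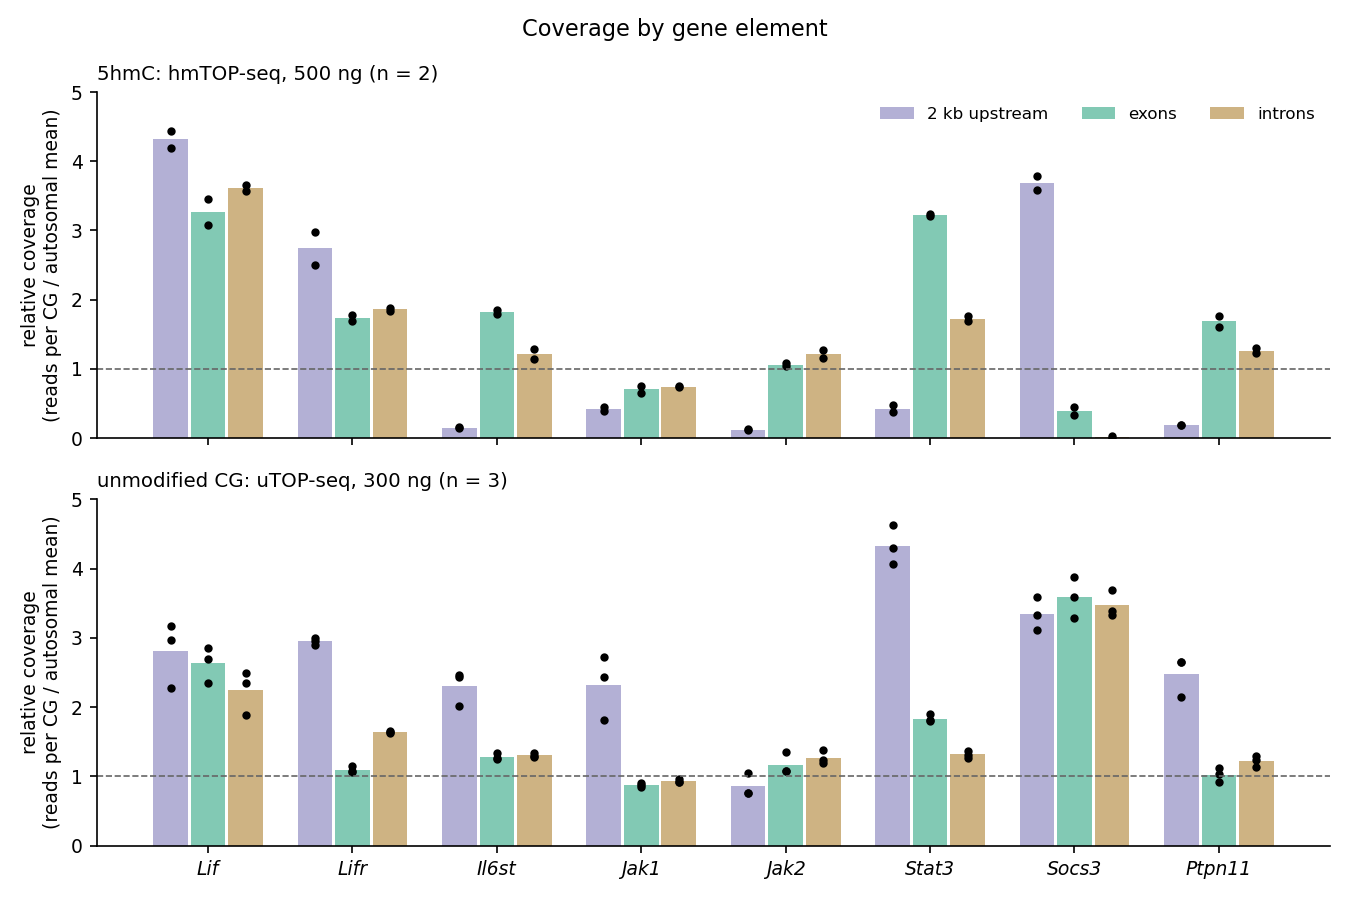
Relative coverage (reads per CG over the autosomal mean of the library, no unit) in the 2 kb upstream, exons and introns of the 8 members. The 2 kb upstream lie before the outermost annotated start of each gene. Bars are means, points are libraries, the upper panel is hmTOP-seq at 500 ng and the lower panel uTOP-seq, and the dashed line is the autosomal mean. In 5hmC the upstream bars of Lif (4.32), Socs3 (3.68) and Lifr (2.74) are high and those of the other 5 members lie below 0.5, whereas among the upstream bars of uTOP-seq only that of Jak2 (0.858) is below the mean.

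**Figure D3:**
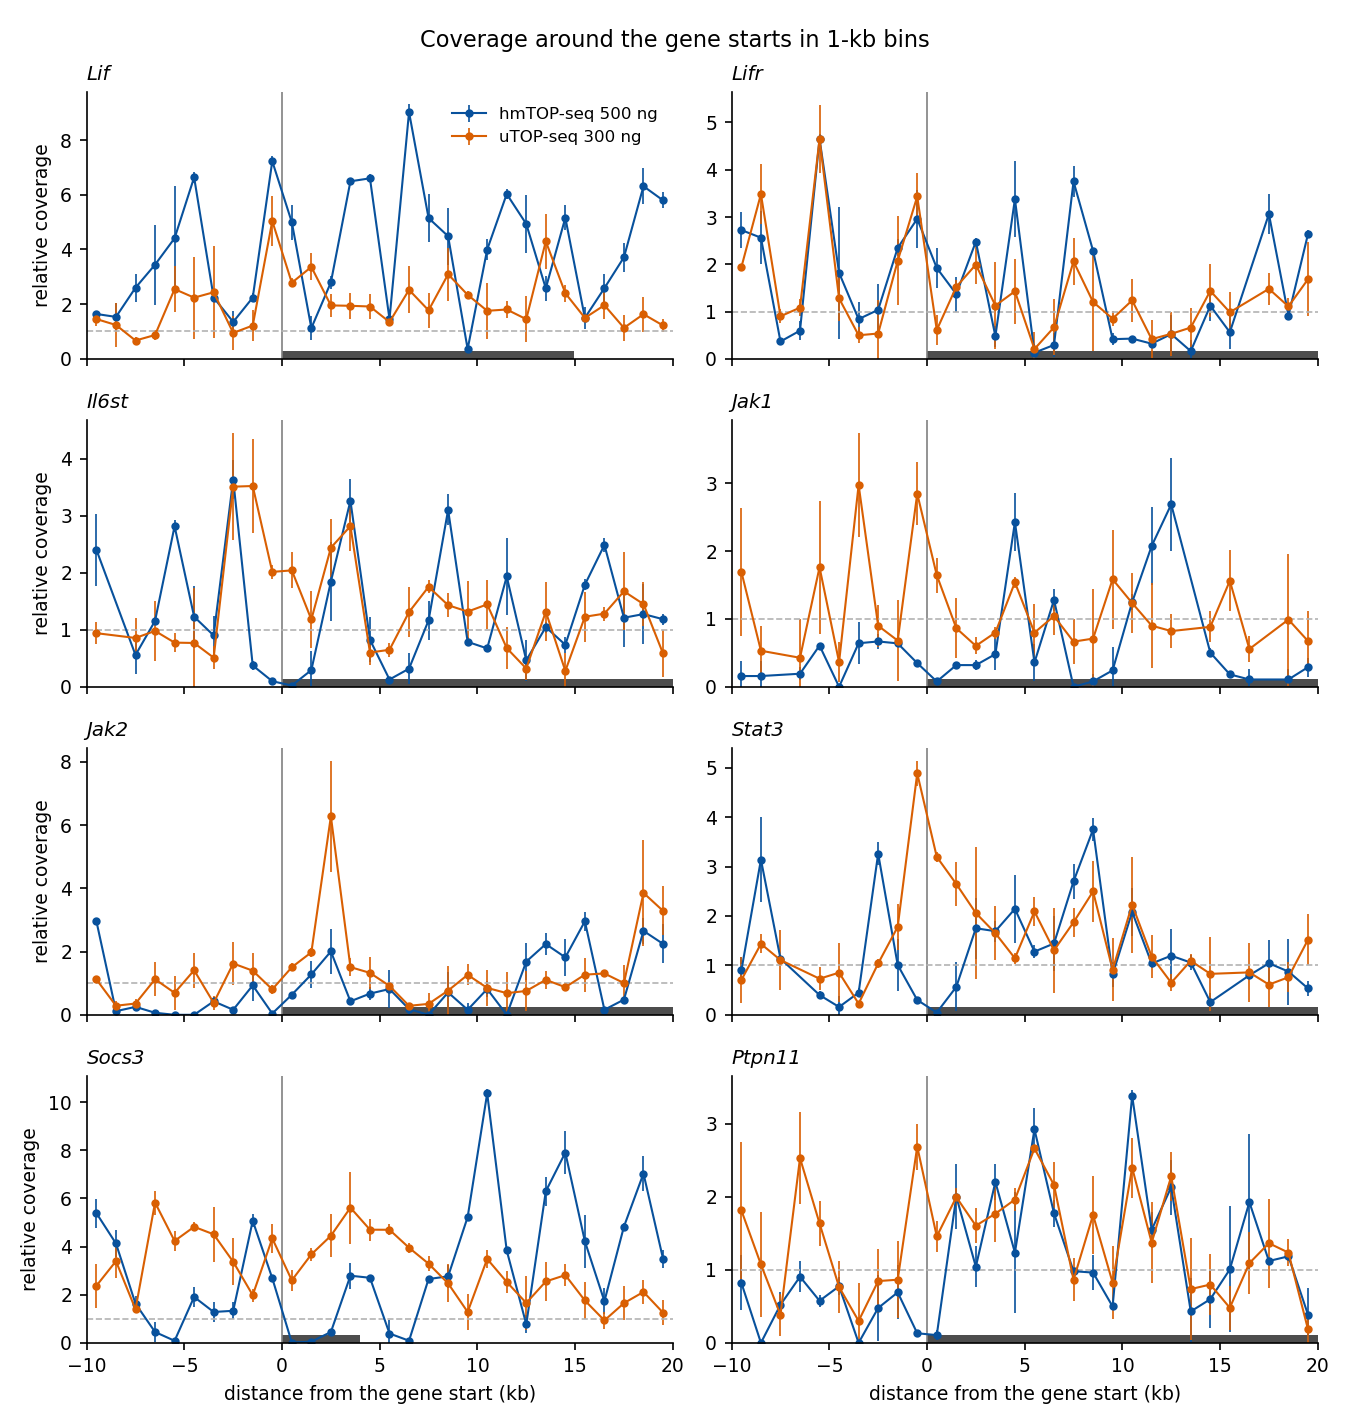
Relative coverage (no unit) in bins of 1 kb from 10 kb before to 20 kb after the gene start, for hmTOP-seq at 500 ng (mean and SD, n = 2) and uTOP-seq (mean and SD, n = 3). The grey line is the gene start, the dark bar along the axis the gene span, and bins with fewer than 3 CGs are left out. 5hmC is near 0 in the first bin after the start of Il6st (0.0219), Jak1 (0.0782), Stat3 (0.0459), Socs3 (0.0127) and Ptpn11 (0.106), and stands at 5.00 in that of Lif and 1.92 in that of Lifr.

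Whether exons or the upstream region stood apart from the rest of the gene was tested for each member over the 6 labelled libraries with a two-sided exact sign-flip permutation test of log2 ratios of reads per CG, with 0.5 reads added. With 6 libraries this test cannot give a p below 0.03125, and over the 16 contrasts of the members the adjusted p then cannot fall below 0.05 unless more contrasts share it. Exons were above introns in 6 of 6 libraries for Stat3 and Ptpn11, and below them in 6 of 6 for Jak2. Such a sign was found above in 27.5% and below in 15.9% of 17488 genes. For each of these 3 members the exact permutation p was 0.03125, with an adjusted p of 0.05, which does not pass the threshold. The 6 log2 ratios of Stat3 were 0.94 and 0.87 (500 ng), 0.78 and 0.95 (50 ng), and 0.34 and 0.52 (5 ng). Those of Ptpn11 were 0.39 and 0.44, 0.77 and 0.33, and 0.56 and 0.37, and those of Jak2 were −0.15 and −0.23, −0.08 and −0.91, and −1.48 and −0.03. For Socs3 the ratios were 5.29 and 3.27 at 500 ng and at 50 ng only the limits given above hold, as the introns had 0 reads. Both of its 5-ng signs rest on 1 exon read, 0 intron reads and the 0.5 added, so that its exon contrast over the 6 libraries is not interpreted. In Jak2 the deficit was not found in all parts of the exons: at 500 ng the 53 CGs of the 5′ UTR stood at 0.435 ± 0.0568, the coding exons at 1.48 ± 0.00247 and the 3′ UTR at 1.60 ± 0.125 (SD, n = 2), the last pair above its introns at 1.22. This did not hold in the libraries with the lowest ratios: the 63 coding CGs held 68 reads in the second 50-ng library and 44 in the first 5-ng library, fewer per CG than the 534 intron CGs, with 750 and 559. In uTOP-seq the exons of Stat3 were above its introns too, by 0.48 ± 0.03 on the log2 scale, and those of Ptpn11 below, by −0.25 ± 0.10 (SD, n = 3). For Lif, Lifr, Il6st and Jak1 the sign varied between hmTOP-seq libraries, with exact permutation p from 0.09375 to 0.84375.

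Against the gene span, the upstream region was higher in 6 of 6 libraries for Lifr and Socs3 and lower in 6 of 6 for Il6st, Jak2, Stat3 and Ptpn11. These signs were found above in 12.5% and below in 37.3% of 18176 genes, so that a depleted upstream region was common among all genes. The upstream region is that of the outermost annotated start, which lies 63739 bp from the start of the longest transcript in Lifr and 861 bp in Socs3. In the RefSeq windows of Socs3 and of the outer Lifr start all 6 labelled libraries had 0 reads, whereas that of the inner Lifr start held reads. The higher sign of Lifr and Socs3 thus does not describe every start of these genes. Again the exact permutation p was 0.03125 and the adjusted p 0.05 for each of the 6 members. The 500-ng log2 ratios were 3.66 and 4.08 for Socs3, 0.73 and 0.44 for Lifr, −3.20 and −3.15 for Il6st, −3.13 and −3.36 for Jak2, −2.46 and −2.13 for Stat3, and −2.70 and −2.86 for Ptpn11. At 5 ng the ratio of Il6st ranged from −4.37 to −0.03 with the 3 and 67 upstream reads given above, and that of Socs3 rests on 1 read in the gene span of each library. Lif was mixed, at 0.39 and 0.23 at 500 ng and −0.38 and −0.69 at 5 ng, and Jak1 was below 0 in 4 of 6 libraries. In uTOP-seq, where 3 libraries cannot give a p below 0.25 and no test was made, the ratio was above 0 in all 3 libraries for Lif, Lifr, Il6st, Jak1, Stat3 and Ptpn11 and below 0 in all 3 for Jak2 and Socs3.

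**Figure D4:**
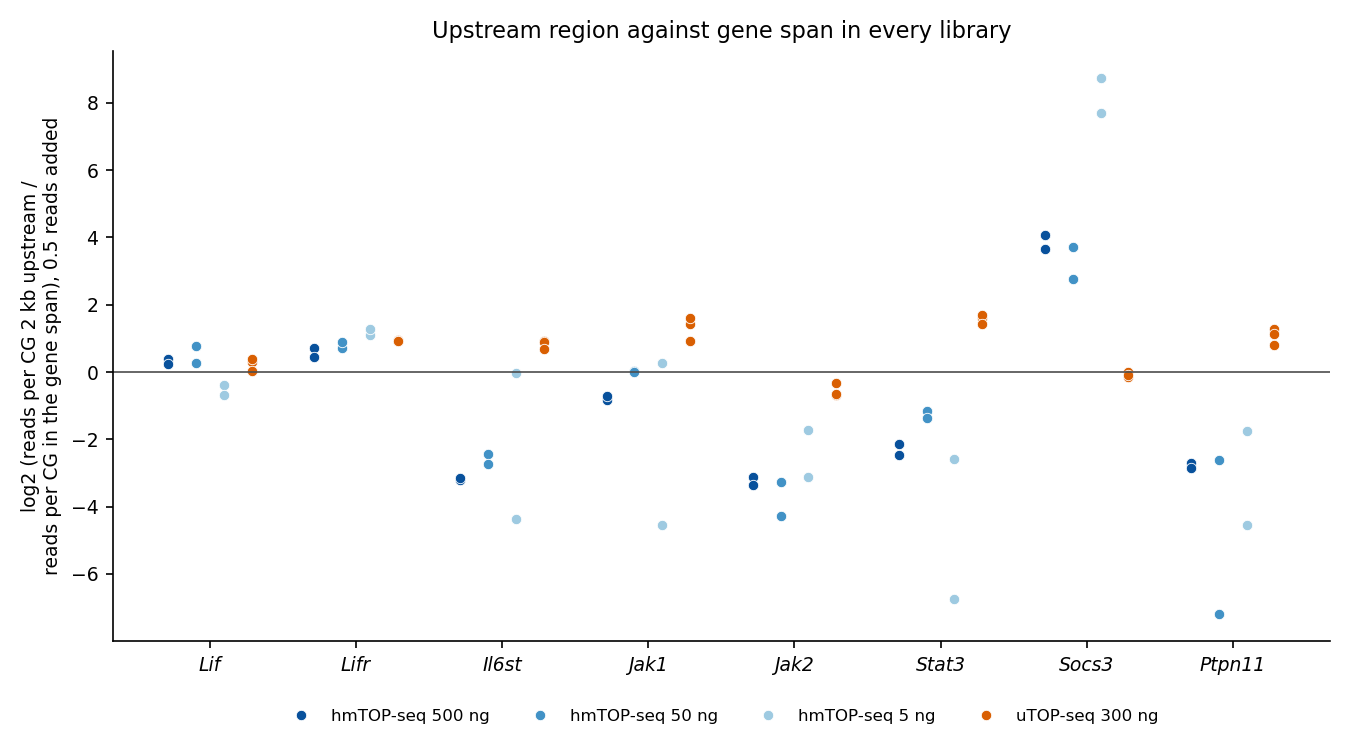
Log2 ratio of reads per CG in the 2 kb upstream to reads per CG in the gene span, with 0.5 reads added to each count. Each point is a library and the line at 0 is equal coverage. The upstream region is that of the outermost annotated start of each gene. All hmTOP-seq points of Socs3 and Lifr lie above the line and all of Il6st, Jak2, Stat3 and Ptpn11 below it, and the points of Socs3 at 5 ng rest on 1 read in the gene span.

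The gap in 5hmC at the gene starts can be measured as the longest run of neighbouring CGs without a read in either 500-ng library, a stretch chosen by those reads and given as a description. It spanned the gene start in 4 members, Il6st, Jak1, Jak2 and Ptpn11, as in 37.9% of 20711 genes. The run of Jak2 was the longest, with 135 CGs from −609 to 286 bp around the start, longer than in 95.6% of genes, whose median was 28 CGs. Il6st had 82 CGs from −197 to 477 bp, Ptpn11 71 from −373 to 223 bp, and Jak1 70 from −399 to 408 bp. In Socs3 the run of 69 CGs began 378 bp after the gene start and ended at 1044 bp, around its RefSeq start, and in Lifr the run of 113 CGs, from 38663 to 39483 bp, held the outer RefSeq start. Unmodified CG was read in these runs, at 1.71 ± 0.161 for Il6st, 1.72 ± 0.296 for Jak1, 2.34 ± 0.252 for Socs3 and 1.47 ± 0.0184 for Ptpn11, but less in that of Jak2, at 0.605 ± 0.0972 (SD, n = 3). In the run of Lifr unmodified CG stood at 1.34 ± 0.159. Stat3 and Lif had runs of 23 and 30 CGs, with unmodified CG at 3.37 ± 0.120 and 0.483 ± 0.187 (SD, n = 3). The mean in the run of Lif was thus below that of Jak2. In the RefSeq windows of 250 bases, 6 of the 9 windows of the members had no 500-ng read. The share of all RefSeq promoters without a read was not counted, so that this count does not set the members apart.

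When each gene span was divided into 4 equal stretches from start to end, 5hmC at 500 ng was lowest in the first stretch in 6 of 8 members and highest in the last in 5 of 8, and 48.0% and 36.9% of 16201 genes did the same. At 50 ng only 4 of 8 members were lowest in the first stretch, since Jak1 was lowest in the second and Jak2 in the last, and at 500 ng the lowest value of both lay within 1 SD of another stretch. Stat3 went from 1.25 ± 0.0625 in the first stretch to 3.02 ± 0.208 in the last, and Il6st from 1.03 ± 0.103 to 2.01 ± 0.0587 (SD, n = 2). In uTOP-seq the first stretch of Stat3 stood highest, at 2.21 ± 0.0894, and its last at 1.45 ± 0.119 (SD, n = 3). Lif did not follow this order, with its lowest value, 1.82 ± 0.0816, in the third stretch.

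At single CGs the agreement of replicates depended on the input. Over the CGs of a locus, Pearson r between the 500-ng libraries ran from 0.597 in Jak1 to 0.905 in Socs3, between the 50-ng libraries from 0.260 in Jak1 to 0.582 in Socs3, and between the 5-ng libraries from −0.010 in Socs3 to 0.095 in Stat3. The number of CGs was that of each locus, from 248 to 1565, and the points share library and depth. The share of CGs read in both libraries of an input followed the same order, in Stat3 from 42.5% at 500 ng to 19.7% at 50 ng and 3.29% at 5 ng. In Socs3, 75.4% of CGs had no read in either 500-ng library, and the 25 CGs with most reads took 84.5% of its reads. Counts summed over a locus at 5 ng are therefore made of few sites, different in each library.

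To ask whether the DNA input alters the measured levels, reads per locus were compared with edgeR's quasi-likelihood test, with TMM scaling and Benjamini-Hochberg adjustment over all genes tested. At 50 ng against 500 ng, 0 of 8 members were called at an adjusted p of 0.05, where 0.00528% of 18929 genes were called, a single gene, Gm20388. At an unadjusted p under 0.05 there were 2191 genes, and DESeq2 called 144. The log2 fold changes of the members, from the counts given above, were −0.20 ± 0.07 for Lif, 0.09 ± 0.04 for Lifr, 0.00 ± 0.08 for Il6st, −0.13 ± 0.09 for Jak1, 0.11 ± 0.09 for Jak2, −0.07 ± 0.09 for Stat3, 0.04 ± 0.18 for Socs3 and −0.12 ± 0.08 for Ptpn11 (SE, n = 2 and 2), with edgeR adjusted p from 0.368 to 0.991. In a fit without a library, the lone library left of its input is assumed to vary like the pair of the other input. Far more genes were called when either 50-ng library was left out, so that calls of such fits are not used and only effect sizes are given. Without the first 50-ng library the log2 fold change of Lif was −0.24, and without the second that of Stat3 was −0.23. The 50-ng libraries of Stat3 stood at 1.71 and 2.11 in relative coverage.

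At 5 ng against the same 500-ng libraries, edgeR called 0.0% of 18666 genes and 0 of 8 members, with 2171 genes at an unadjusted p under 0.05 and 984 called by DESeq2. The log2 fold changes were −0.04 ± 0.17 for Lif, 0.15 ± 0.07 for Lifr, 0.25 ± 0.10 for Il6st, −0.21 ± 0.18 for Jak1, 0.24 ± 0.13 for Jak2, −0.02 ± 0.11 for Stat3, −0.80 ± 0.44 for Socs3 and 0.20 ± 0.10 for Ptpn11 (SE, n = 2 and 2), with edgeR adjusted p from 0.432 to 0.967. Both comparisons share the 500-ng libraries. A test without a call does not show that levels were equal, and the SE of Socs3 in particular leaves room for a large difference. For the gene span alone Socs3 stood at −5.17 (edgeR adjusted p = 0.398), on 1 read in each 5-ng library, and in the 50-ng comparison at 0.40 in place of 0.04. Fits without a library are again given as effect sizes only. Without the first 5-ng library the log2 fold changes were −0.27 for Lif, 0.26 for Il6st, −0.43 for Jak1, 0.34 for Jak2 and 0.25 for Ptpn11. Without the second they were 0.16 for Lif, 0.21 for Lifr, 0.24 for Il6st and −1.40 for Socs3. Il6st had the same sign in both fits, and Lif opposite signs.

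The 500-ng 5hmC map was then set against the map of unmodified CG, a comparison of assays and not of cell states. A log2 fold change above 0 here means more 5hmC reads for the unmodified CG reads of a gene than at the reference level that TMM sets from all genes, and not a larger share of the library. Of the members, 5 were called higher in 5hmC and 1 lower, where 40.1% of 19789 genes were called higher and 41.8% lower. The median log2 fold change was 0.29 for the members and −0.03 for all genes. Lif had 0.87 ± 0.06 (edgeR adjusted p = 1.7e-18), Stat3 0.63 ± 0.05 (8.0e-16) and Lifr 0.54 ± 0.04 (1.6e-18), and in each every 500-ng library was above every uTOP-seq library in relative coverage. The share of all genes whose libraries separate in this way was not counted. Ptpn11 had 0.33 ± 0.05 (edgeR adjusted p = 3.5e-07) and Il6st 0.24 ± 0.06 (0.00015), although the relative coverage of Il6st was 1.31 in 5hmC and 1.38 in unmodified CG. Socs3 was lower in 5hmC, at −2.06 ± 0.09 (edgeR adjusted p = 3.7e-26), with relative coverage of 0.695 and 0.669 in hmTOP-seq and 3.65, 3.62 and 3.28 in uTOP-seq. The kinases were not called, with −0.10 ± 0.06 for Jak1 (edgeR adjusted p = 0.115) and 0.10 ± 0.06 for Jak2 (0.130), the latter 0.14 (0.0413) without the second uTOP-seq library. The scaling sets the zero of this comparison: without TMM the median of all genes was −0.28 in place of −0.03, and 35.5% of calls were higher in place of 48.9%. Then Il6st stood at −0.01 and Ptpn11 at 0.08, neither called, and Jak1 at −0.35 and Jak2 at −0.15, both called lower. The calls of Lif, Lifr, Stat3 and Socs3 held under every alternative.

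The pathway has other genes around these members, and a list of 39 of them was described in the same way. In the 50-ng and 5-ng comparisons edgeR called 0 of the 39. Against uTOP-seq, 22 were higher in 5hmC, 13 lower and 4 not called, where 40.1% of all genes were higher and 41.8% lower. The median log2 fold change was 0.25, and values ran from −3.49 ± 0.11 for Myc to 1.59 ± 0.05 for Cntfr. Their median relative coverage at 500 ng was 1.56 against 0.977 for all genes, and 29 of 39 lay above the latter. The list was high in uTOP-seq as well, with a median of 1.97 against 1.33 and 28 of 39 above. Ligand genes of the interleukin-6 family ran from 1.33 for Ctf1 to 6.04 for Osm, and those of their receptors from 1.14 for Osmr to 2.38 for Il6ra. The Janus kinases Jak3 and Tyk2, at 5.44 and 2.83, both lay above Jak1 and Jak2. The other STAT genes ran from 0.745 for Stat4 to 2.81 for Stat6, inhibitors from 0.489 for Socs1 to 2.67 for Cish, and adaptors from 1.02 for Sos1 to 2.02 for Gab1.

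Among the roles of this list, the genes that STAT3 activates in mESCs had the lowest median in 5hmC, 0.414 at 500 ng. They were not compared with genes of similar CG density, and a tie to being a target was not tested. Of 8 such targets 6 lay below the median of all genes at 500 ng, from Myc at 0.212 ± 0.0746 (SD, n = 2), the growth regulator, up to Bcl3 at 2.32 ± 0.00388, and all 8 lay above the median in uTOP-seq, from Klf4 at 2.15 ± 0.0804 to Gbx2 at 3.07 ± 0.220 (SD, n = 3). The largest differences between the maps were those of Myc, at −3.49 ± 0.11 (edgeR adjusted p = 1.1e-30), Junb, at −3.24 ± 0.11, and Pim3, at −3.03 ± 0.10. Socs3 is itself a target of STAT3, and the related inhibitor gene Socs1 had a log2 fold change of −2.03 ± 0.10 with 0.489 ± 0.0229 in 5hmC and 2.47 ± 0.0417 in unmodified CG.

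**Figure D5:**
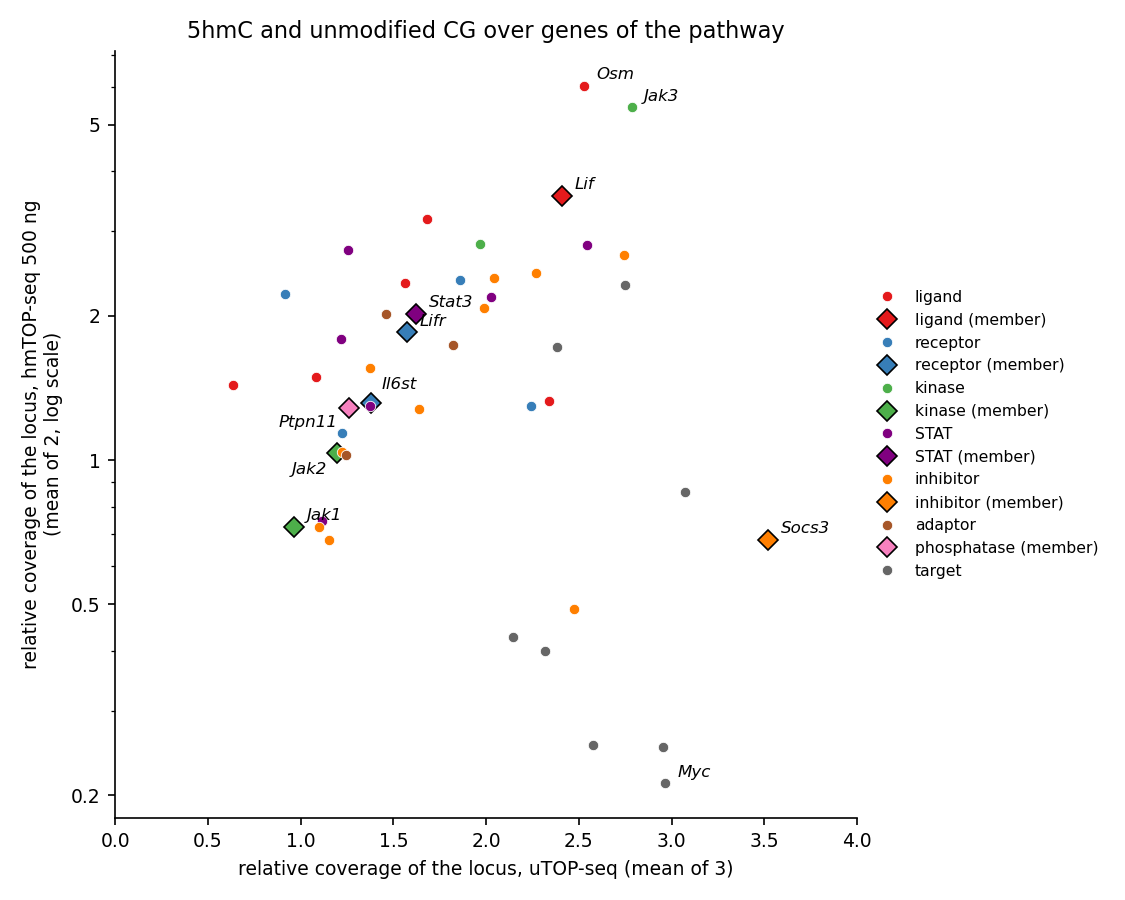
Relative coverage of the locus in uTOP-seq (horizontal, mean of 3, no unit) against that in hmTOP-seq at 500 ng (vertical, mean of 2, log scale) for the 8 members (diamonds) and 39 other genes of the pathway (circles), coloured by role. Socs3 (3.52, 0.682) lies at the far right with the targets, of which Myc (0.212 in 5hmC) is lowest, and Osm (6.04) and Jak3 (5.44) lie highest.

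The genes most like each member were sought by the distance between 6 log2 values, the relative coverage of upstream region, exons and introns in hmTOP-seq at 500 ng and in uTOP-seq, over 12919 genes with at least 20 CGs in each element. Stat3 was nearest to Tedc1 (distance 0.351), whose upstream region had 0.449 in 5hmC and 3.91 in unmodified CG and whose exons had 2.77 in 5hmC. Socs3 was nearest to Comtd1, at the largest distance of any member (0.734), with 3.20 upstream and 0.0293 in introns for 5hmC. The remaining pairs were Lif with Obsl1 (0.387), Lifr with Xylt2 (0.458), Il6st with Prpf8 (0.367), Jak1 with Crebbp (0.245), Jak2 with Prpf18 (0.681) and Ptpn11 with Zyg11a (0.325), where Lifr itself has 17 upstream CGs only. These are likenesses of coverage and nothing more.

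As a check of the cell type, coverage was read from 500 bp before to 500 bp after the start of marker genes. Unmodified CG was above the genome mean in 7 of 7 embryonic stem cell genes, with a median of 3.03, in 5 of 5 fibroblast genes, with 2.54, and in 4 of 5 germline genes, with 1.41, and in 7 of 8 members, with 1.90. Among the stem cell genes Pou5f1 was highest with 5.35 ± 0.569 and Esrrb lowest with 1.21 ± 0.627 (SD, n = 3), and Esrrb was high in 5hmC, at 5.78 ± 0.00400 (SD, n = 2). The median in 5hmC was 0.148 for embryonic stem cell genes, 1.34 for fibroblast genes, 3.38 for germline genes and 0.0355 for the members. The starts of stem cell and fibroblast genes thus overlapped in unmodified CG and the check does not tell these cell types apart.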

How the data were processed

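The deposited values are raw read counts per CG site and library, without normalization or pooling. As the authors describe, hmTOP-seq reads were trimmed and filtered, reads of sufficient raw length were mapped to mm10 above a mapping quality limit, duplicates were removed, and the rest were assigned to CG sites, and uTOP-seq counts were made as in an earlier study. The aligner is not given in the sources used here. All 15 libraries were used. Groups follow the sample titles, in which K was read as the controls without BGT because the sequencing statistics of the study list the same identifiers as such.

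Counts of both strands were summed per CG and added up over each locus, 2 kb upstream, exons of any transcript and introns (GENCODE M21, mm10). Relative coverage is reads per CG over the autosomal mean, and ranks used genes with at least 10 CGs in the element. Locus counts were tested with the quasi-likelihood test of edgeR 4.0.16 in R 4.3.3 (filterByExpr, TMM, Benjamini-Hochberg, threshold 0.05), and element contrasts with an exact sign-flip permutation test in Python 3.11.15 with numpy 2.4.6 and pandas 2.3.3, with 0.5 reads added. Both tests were first tried on simulated data. Figures used matplotlib 3.10.9. Alternatives were DESeq2 1.42.0, totals without TMM, no filter, the replicate number as a block, counts capped at 50 reads per CG, the gene span alone, exons of the longest transcript, 1 kb upstream, CGs read in both replicates or at least 3 times, the own chromosome as reference and leaving out each library.

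The named genes were all 8 members, of the pathway list the highest and lowest of each role (the genes called against uTOP-seq were too many to name), the CG of each member with most reads in the first 500-ng library, and for each member the nearest gene by coverage. Members and lists (pathway, embryonic stem cell, fibroblast and germline genes) were chosen with earlier results of these data known. Cntfr, Socs1, Junb, Pim3, Klf4, Gbx2, Esrrb and Pou5f1 were singled out after their values were seen where the rule does not name them. Promoter sequences are those of RefSeq for GRCm38.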

Additional observations from a re-analysis of the deposited data

Results flagged for a closer look

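In 6 of 16 member contrasts the ratio went one way in every 500-ng hmTOP-seq library and the other way in every uTOP-seq library. The difference between the assays was not tested, and the share of all genes with such opposite signs was not counted. Over all genes, median relative coverage in 5hmC at 500 ng was 0.691 upstream and 1.02 in the gene span. In unmodified CG it was 1.94 and 1.28. On the log2 scale, the upstream region against the gene span was lower in 5hmC than in unmodified CG by −4.00 in Il6st (−3.17 against 0.83), −3.87 in Stat3 (−2.30 against 1.57), −3.85 in Ptpn11 (−2.78 against 1.08) and −2.09 in Jak1 (−0.78 against 1.32), and higher by 3.95 in Socs3 (3.87 against −0.08). Exons against introns differed in Ptpn11, by 0.67 (0.42 against −0.25). For Socs3 the uTOP-seq ratios of the upstream region ran only from −0.14 to −0.01, so that its opposite sign rests on a small uTOP-seq difference. For Jak1 the hmTOP-seq sign held at 500 ng and not in every library of lower input. The upstream region of Socs3 lies before its outermost annotated start, and the longest transcript begins 861 bp after that start.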

How the results depend on the processing

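The count of genes called at 50 ng against 500 ng (1 with edgeR) was 144 with DESeq2, 0 without TMM, 0 without a filter, 3 with counts capped and 1 to 2371 when a library was left out. At 5 ng against 500 ng (0 with edgeR) it was 984 with DESeq2 and 0 to 10972 when a library was left out. The cause was not tested. With the replicate number as a block, the counts were 114 at 50 ng and 2 at 5 ng. The deviations of same-numbered libraries from their group means had r of 0.045, −0.010 and 0.003 in the 3 comparisons, so that the numbers do not pair the libraries. The count for hmTOP-seq against uTOP-seq, 16214, stayed within 1.5 times under all alternatives. Without TMM the log2 fold change of Il6st against uTOP-seq was −0.0138 in place of 0.24.

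No element contrast passed the threshold under any alternative, which is no sign of stability, since with a library left out the exact p cannot fall below 0.0625. The mean log2 ratio changed sign in Lif (exons −0.20, with the longest transcript 0.36; upstream 0.10, with CGs read in both replicates −0.90, without the first 50-ng library −0.04) and in Lifr (exons −0.03, with the longest transcript 0.15, without the first 5-ng library 0.07), and in no other member. The exon model had no bearing on the upstream contrast, nor the upstream size on the exon contrast. Of 56 alternative values of relative coverage at 500 ng, 23 moved by more than 1 SD. Socs3 moved most in proportion, from 0.682 to 0.253 without the 2 kb upstream. At 5 ng, values of single elements rest on few CGs.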

Other observations

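Single exons were read after their values had been seen and are given without a test. In Stat3, exon 20 of the 24 exons of the longest transcript has 5 CGs, which held 98 and 96 hmTOP-seq reads (500 ng), 52 and 88 (50 ng), 24 and 30 (5 ng), and 55, 51 and 47 uTOP-seq reads. In Ptpn11, exon 4 of 16 has 12 CGs with 127 and 98 reads (500 ng), 57 and 58 (50 ng), 0 and 22 (5 ng), and 24, 24 and 26 uTOP-seq reads. Exon 1 of Ptpn11, of 28 CGs, had no hmTOP-seq read in any labelled library and 19, 15 and 13 uTOP-seq reads. In Jak2, exon 1 held 49 CGs with 0 and 3 reads at 500 ng and exon 9 held 7 CGs with 34 and 56.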
